A study of Mus musculus with 24 samples.

Results

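Mast cells are granule-bearing immune cells of connective tissue, and 7 genes that mark them were followed in the spinal nerve roots of growing mice. The genes were taken by name: the granule proteases Cma1, Mcpt4, Cpa3 and Tpsb2, the IgE receptor chains Fcer1a and Ms4a2, and Hdc, the enzyme that makes histamine. These 7 genes stand on 10 of the 56605 gene features of the array, and each gene is described by its feature of highest mean signal over the 24 arrays. The samples were efferent nerve (EN) fibres of the ventral root and afferent nerve (AN) fibres of the dorsal root, from L4 to L6 of C57BL/6 mice at birth (P0), 1 week (1W), 3 weeks (3W) and 5 weeks (5W), with 3 arrays for each of the 8 combinations. The labels give no treatment, and the fibres of each group were pooled in a tube after the arachnoid had been peeled away. Each of the 3 arrays of a group came from an independent experiment per the study's methods. The labels do not say whether these 3 are separate pools or separate animals.

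Mast cells arise from blood-borne progenitors, settle in tissues around vessels and nerves, and mature there under the growth factor that binds the receptor Kit. A mature connective tissue mast cell stores tryptases, chymases and carboxypeptidase A3 with histamine on serglycin proteoglycan, and releases them when antigen cross-links IgE on its high-affinity receptor. In peripheral nerve, mast cells lie in the connective tissue sheaths, and mast cells also line the meninges that cover the roots.

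The arrays measured these genes over very different margins. Cma1, Tpsb2 and Hdc were well above background on all 24 arrays, Fcer1a on 20, Mcpt4 on 17, Cpa3 on 9 and Ms4a2 on 1. On an array 55.1% to 71.7% of the gene spots were well above background, and the lowest normalised signal that still was so lay between 3.71 and 5.87 in log2 units. As a check of the tissue, Sox10, a transcription factor of Schwann cells, was well above background on all 24 arrays, with a log2 signal between 13.76 and 15.52. The arrays lay on 4 slides, which do not divide evenly over age: P0 was on slides 1 and 2, 1W on slides 1, 2 and 3, 3W on slide 4, and 5W on slides 2, 3 and 4.

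The 60-base features lie on the mouse mm9 build as given with the array. The Cma1 feature covers chr14:56560454-56560513, the Mcpt4 feature chr14:56678589-56678648, the Cpa3 feature chr3:20115674-20115733, the Tpsb2 feature chr17:25504819-25504878, the Fcer1a feature chr1:175152865-175152924, the Ms4a2 feature chr19:11690107-11690166 and the Hdc feature chr2:126419516-126419575. Cma1 and Mcpt4 belong to the chymase gene cluster of chromosome 14, and Tpsb2 to the tryptase cluster of chromosome 17. Both are families of similar genes, and cross-hybridisation between their members was not tested.

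Cma1, Cpa3 and Mcpt4 are the members that were high at birth and low afterwards, so the 250 bases before their start sites are shown, taken from RefSeq on GRCm38.p6 and read on the gene's strand. Capitals mark AGATAA or TGATAA on either strand, core letters that GATA factors, which include the mast cell regulators Gata1 and Gata2, are known to bind. The windows are chr14:55944676-55944925 for Cma1, chr3:20242182-20242431 for Cpa3 and chr14:56062311-56062560 for Mcpt4, all on the minus strand.
Cma1: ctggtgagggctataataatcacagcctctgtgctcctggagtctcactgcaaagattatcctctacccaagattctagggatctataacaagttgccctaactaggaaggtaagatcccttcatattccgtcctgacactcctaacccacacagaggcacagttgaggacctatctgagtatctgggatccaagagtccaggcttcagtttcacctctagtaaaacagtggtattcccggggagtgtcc
Cpa3: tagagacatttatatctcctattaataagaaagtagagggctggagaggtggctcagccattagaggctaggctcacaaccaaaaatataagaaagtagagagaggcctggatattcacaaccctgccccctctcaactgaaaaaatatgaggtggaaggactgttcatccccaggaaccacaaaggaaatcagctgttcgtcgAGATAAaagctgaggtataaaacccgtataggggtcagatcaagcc
Mcpt4: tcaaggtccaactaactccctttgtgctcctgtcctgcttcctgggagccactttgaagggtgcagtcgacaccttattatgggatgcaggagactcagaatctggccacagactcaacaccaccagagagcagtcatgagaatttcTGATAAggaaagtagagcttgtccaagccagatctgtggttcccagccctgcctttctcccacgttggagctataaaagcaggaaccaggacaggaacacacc
Cpa3 held AGATAA starting 46 bases before the start, and Mcpt4 held TGATAA starting 103 bases before it. These letters were not found in the Cma1 window. Other forms of the GATA letters were not searched, so a window without a match can still hold a GATA site. Of the 6 members with a RefSeq window, 4 held at least 1 match (Cpa3, Mcpt4, Fcer1a and Ms4a2), whereas 16.6% of the 32851 windows of this length in the table did. The match is a description of letters and was not tied to any binding measurement.

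The 7 genes did not follow the same course over the first 5 weeks. Cma1, Cpa3 and Mcpt4 were high at P0 in both roots and low from 1W or 3W onward. Tpsb2 changed by less than 2-fold, with a lower signal than at P0 in EN at 3W and 5W, Hdc was lowest at 1W, Fcer1a stayed near its lower limit, and Ms4a2 was hardly detected. In these bulk samples, fewer mast cells and less RNA per mast cell cannot be told apart. The normalised signals are also relative to all other RNA of a sample, so neither follows from a lower signal.

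**Figure D1:**
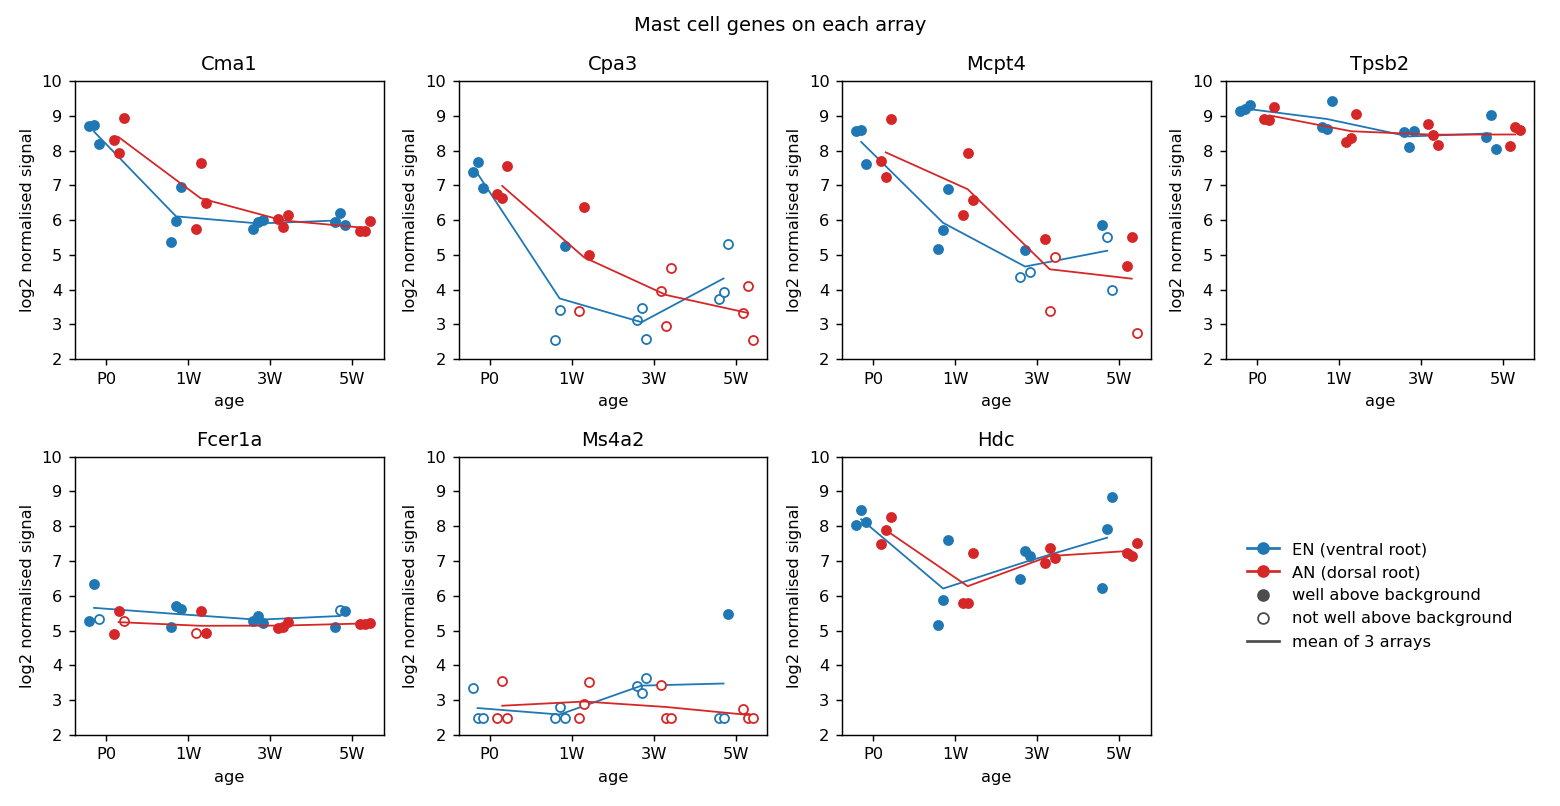
Signal of the 7 mast cell genes on each of the 24 arrays in log2 normalised units (vertical axis) by age (horizontal axis), in EN (blue) and AN (red); filled points were well above background, open points were not, and lines join the means of 3 arrays. Cma1, Cpa3 and Mcpt4 start high at P0 and lie lower at 3W and 5W on every array, whereas Tpsb2 lies between 8.06 and 9.43 over all arrays.

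Cma1 encodes a mast cell chymase, a serine protease of the granules. At P0 its log2 signal was 8.72, 8.72 and 8.19 on the 3 EN arrays and 8.29, 7.93 and 8.93 on the 3 AN arrays. At 1W it was 5.38, 5.98 and 6.96 in EN, against 5.74, 7.65 and 6.50 in AN. Every P0 array was thus above every 1W array, although 1W AN replicate 2 came within 0.29 of the lowest one. At 3W the values were 5.75, 5.95 and 6.01 in EN, against 6.03, 5.80 and 6.14 in AN. At 5W they were 5.93, 6.19 and 5.84 in EN, against 5.70, 5.67 and 5.96 in AN. From 3W the 12 arrays lay in a narrow band, and the ages and roots overlapped in it. All were well above background, by margins that varied. On 5W EN replicate 3 the signal was 5.84 against a lowest well-above signal of 5.33, and on 5W AN replicate 1 it was 5.70 against 3.92. Whether this limit narrowed the differences from P0 was not tested.

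In the limma fit of the 8 groups, Cma1 was lower than at P0 in all 6 comparisons, with adjusted p values over all tested features. In EN the log2 difference was -2.44 at 1W (SE 0.39, adjusted p = 0.000182), -2.64 at 3W (adjusted p = 1.73e-05) and -2.55 at 5W (adjusted p = 2.13e-05). In AN it was -1.76 at 1W (SE 0.39, adjusted p = 0.00316), -2.39 at 3W (adjusted p = 5.33e-05) and -2.61 at 5W (adjusted p = 1.79e-05). The largest of these is a 6.24-fold lower signal in EN at 3W. The decrease was also present within slides: on slide 1 the 1W array was lower than the P0 array by -3.34 in EN and -2.56 in AN, and on slide 2 by -1.498 and -1.94. No slide held both 3W and P0 arrays.

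Mcpt4 encodes a second mouse chymase, the protease typical of connective tissue mast cells. Its log2 signal at P0 was 8.56, 8.59 and 7.61 in EN, against 7.71, 7.24 and 8.89 in AN. At 1W it was 5.16, 5.71 and 6.89 in EN, against 6.15, 7.94 and 6.58 in AN. The groups overlapped in AN, where 1W replicate 2 was higher than P0 replicates 1 and 2. At 3W only 1 array in each root was well above background, EN replicate 2 at 5.13 and AN replicate 1 at 5.44. At 5W EN replicate 1 (5.87) and AN replicates 1 and 2 (4.67 and 5.51) were above background.

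Mcpt4 was called lower than at P0 in 5 of the 6 comparisons. In EN the log2 difference was -2.33 at 1W (SE 0.72, adjusted p = 0.0212), -3.59 at 3W (adjusted p = 0.000379) and -3.13 at 5W (adjusted p = 0.00118). In AN it was -1.06 at 1W (adjusted p = 0.327, not called), -3.36 at 3W (adjusted p = 0.000717) and -3.63 at 5W (adjusted p = 0.00033). Most of the 3W and 5W arrays were not above background, and with each such array at its detection limit, or at the gene's value where that was higher, the EN differences came to -3.30 and -2.65, against -2.98 and -2.88 for AN. The 1W call in EN was lost when P0 EN replicate 1 or 2, or 1W EN replicate 1 or 2, was left out (adjusted p between 0.0631 and 0.0995). With the slide as a block, the 3W calls were lost in both roots, at -1.80 in EN (adjusted p = 0.119) and -1.57 in AN (adjusted p = 0.179), while both 5W calls were kept.

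Cpa3 encodes carboxypeptidase A3, the exopeptidase stored with the chymases. At P0 it was well above background on all 6 arrays, at 7.39, 7.67 and 6.93 in EN, against 6.75, 6.63 and 7.57 in AN. At 1W 3 arrays remained above background, EN replicate 3 at 5.26 and AN replicates 2 and 3 at 6.39 and 5.00. The other 1W values were 2.55 and 3.42 in EN and 3.39 in AN, and at 3W and 5W no array was above background in either root. Cpa3 therefore entered the test through the P0 groups alone, where it was high, and its calls are not counted as independent of that choice.

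Cpa3 was called lower than at P0 at every age in both roots. At 3W the fitted log2 difference was -4.27 in EN (adjusted p = 5.99e-05) and -3.14 in AN (adjusted p = 0.00116). At 5W it was -3.01 in EN (adjusted p = 0.00145) and -3.66 in AN (adjusted p = 0.000275). These limma p values belong to fits on later arrays that were not above background, and Cpa3 entered the test through P0 alone. As bounds, which were not tested, its signal at 3W was at least 5.49-fold lower in EN and 4.81-fold lower in AN. At 5W it was at least 4.90-fold lower in EN and 5.61-fold lower in AN. For these bounds, each dim array was set to its own detection limit, or to the gene's value where that was higher. At 1W the fitted log2 difference was -3.59 in EN (SE 0.71, adjusted p = 0.0011) and -2.06 in AN (adjusted p = 0.0442), values that include 2 dim EN arrays and 1 dim AN array. With these set to their limits in the same way, the differences were -2.45 and -1.49. The 1W call in AN was weak: it was lost in 14 of the 24 fits that left out 1 array (adjusted p up to 0.239) and with the replicate block within age (adjusted p = 0.108).

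At P0 and 1W the 3 genes ranked the arrays of each group in the same order. At 1W AN replicate 2 had the highest Cma1, Mcpt4 and Cpa3 of its root (7.65, 7.94 and 6.39), and EN replicate 3 the highest of the ventral root (6.96, 6.89 and 5.26). At P0 AN replicate 3 was highest for all 3 genes, and EN replicate 3 was lowest for all 3. At 5W this was not so: AN replicate 3 had the highest Cma1 (5.96) and the lowest Mcpt4 and Cpa3 (2.76 and 2.56, both dim), and EN replicate 3 had the lowest Cma1 and Mcpt4 but the highest Cpa3 (5.30, dim). Without those 2 arrays of 1W, Cma1 and Cpa3 were still called lower at 1W in both roots.

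Tpsb2 encodes the mast cell tryptase beta 2, also a granule serine protease, and it did not follow the chymases. Its log2 signal was 9.13, 9.18 and 9.31 in EN, against 8.91, 8.87 and 9.25 in AN at P0. At 1W it was 8.69, 8.61 and 9.43 in EN, against 8.24, 8.37 and 9.06 in AN, and the 6 arrays overlapped those of P0. At 3W it was 8.55, 8.10 and 8.57 in EN, against 8.75, 8.46 and 8.16 in AN, all below the lowest P0 array. At 5W it was 8.39, 9.03 and 8.06 in EN, against 8.13, 8.67 and 8.59 in AN. The log2 difference from P0 in EN was -0.80 at 3W (SE 0.27, adjusted p = 0.0179) and -0.72 at 5W (adjusted p = 0.0326), which passed the p threshold but not the fold change of 2. In AN it was -0.55 at both ages (adjusted p = 0.0945 and 0.0998).

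The log2 ratio to Tpsb2 on the same array describes how far the members parted, and it was not tested, because the genes were set against Tpsb2 after their values had been seen. As the mean of the roots, the ratio of Cma1 was lower than at P0 by 1.72 at 1W, by 1.84 at 3W and by 1.95 at 5W on the log2 scale. That of Mcpt4 was lower by 1.32 at 1W, when all 6 arrays were above background. That of Hdc differed from P0 by -1.43 at 1W, -0.31 at 3W and 0.07 at 5W.

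Fcer1a encodes the alpha chain of the high-affinity IgE receptor, the chain that binds IgE. Its log2 signal lay between 4.89 and 6.33 over all arrays, close to the limit of measurement. The highest array was P0 EN replicate 2 at 6.33, and no other array exceeded 5.72. The difference from P0 ranged from -0.34 (EN, 3W) to -0.04 (AN, 5W), with adjusted p values of 0.257 or more, and the 95% interval of each reached neither a 2-fold decrease nor a 2-fold increase. Ms4a2 encodes the beta chain, which amplifies the receptor's signal. It was above background on 5W EN replicate 3 only, at 5.46 (its second feature likewise on 1 array), so it was not tested. The receptor of mast cells was thus seen through 1 chain at low signal, while the gamma chain gene Fcer1g, which macrophages also express, was at 10.85 to 12.59.

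Hdc encodes histidine decarboxylase, which mast cells, basophils and myeloid cells of the neutrophil line use to make histamine. At P0 its log2 signal was 8.04, 8.46 and 8.11 in EN, against 7.49, 7.90 and 8.28 in AN. At 1W it was 5.14, 5.88 and 7.60 in EN, against 5.79, 5.80 and 7.23 in AN, with replicate 3 the highest in both roots. At 3W it was 6.47, 7.29 and 7.16 in EN, against 6.94, 7.39 and 7.09 in AN, all below the P0 arrays. At 5W the EN arrays spread from 6.24 to 8.85, which spans the P0 range, and the AN arrays lay at 7.24, 7.14 and 7.51. The other features of Hdc were above background on 5 and on 0 arrays and were not tested.

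Hdc was called lower than at P0 at 1W in EN (log2 difference -1.99, SE 0.58, adjusted p = 0.0152). In AN the 1W difference of -1.61 had an adjusted p of 0.0531 and was not called, although 6 of 10 other settings called it (adjusted p between 0.0081 and 0.0436), as did 5 of the 24 fits that left out 1 array. The call in EN was lost without P0 EN replicate 2 or 1W EN replicate 1 or 2 (adjusted p between 0.0508 and 0.1). At 3W the difference was -1.23 in EN (adjusted p = 0.0785) and -0.75 in AN (adjusted p = 0.291), and with the slide as a block it was called in both roots, at -2.13 (adjusted p = 0.0134) and -1.64 (adjusted p = 0.0492). At 5W it was -0.53 in EN (adjusted p = 0.458) and -0.59 in AN (adjusted p = 0.411).

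The mean of neutrophil and myeloid progenitor genes ranked the EN arrays of 1W and 5W as Hdc did, but not those of every group. The means of basophil and of eosinophil genes ranked these EN arrays likewise. Those of macrophage and of T and B cell genes did so at 1W only, and that of erythroid genes at neither age. The mean of 7 neutrophil and myeloid progenitor genes, all above background on all 24 arrays, was 8.84, 11.03 and 12.20 on the 1W EN arrays and 10.58, 11.34 and 12.68 on the 5W EN arrays for replicates 1, 2 and 3. Hdc rose in the same order in both groups, from 5.14 to 7.60 and from 6.24 to 8.85. Elane, 1 of the 7 genes, did not, at 11.69, 10.67 and 11.03 on the 1W EN arrays. In P0 EN the mean was 10.89, 10.79 and 10.57 while Hdc was 8.04, 8.46 and 8.11, and in AN at 5W the mean was 11.87, 11.23 and 11.27 while Hdc was 7.24, 7.14 and 7.51. Ctsg, a protease of neutrophils and of some mast cells, was 5.44, 7.58 and 9.86 on the same 1W arrays and 7.23, 7.82 and 10.62 at 5W. At P0 the 7 genes averaged 10.39 to 10.89 while the group means of Hdc were at their highest in each root, so the order did not hold between P0 and the later ages. Of 4 basophil genes, Mcpt8 was above background on 12 arrays, Prss34 on 18, Cd200r3 on 1 and Il4 on 0, and their mean was 3.36 to 4.88 at P0 and 3.49 to 5.07 later. The part of these cells in the Hdc signal was not tested.

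**Figure D2:**
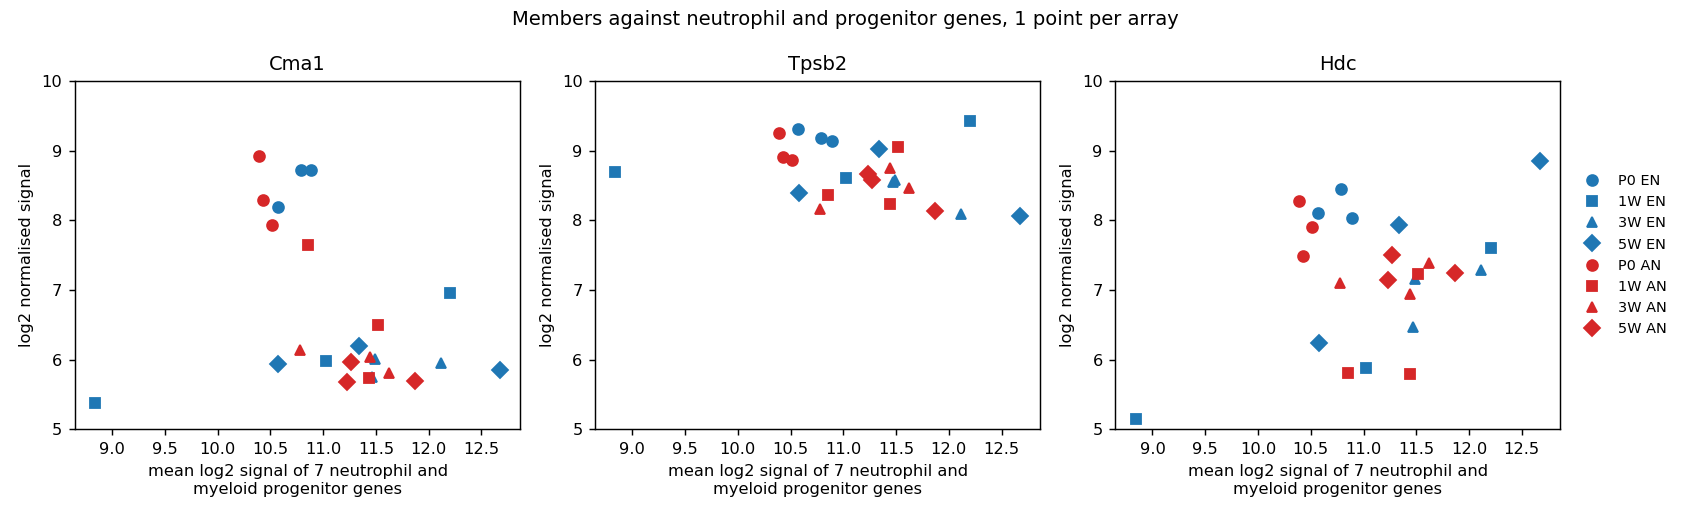
Log2 normalised signal of Cma1, Tpsb2 and Hdc (vertical axis) against the mean log2 signal of 7 neutrophil and myeloid progenitor genes (horizontal axis), with 1 point per array, EN in blue and AN in red, and a marker shape for each age. Along the ventral root arrays of 1W and of 5W, Hdc rises with the myeloid mean, from 5.14 to 7.60 and from 6.24 to 8.85, while Cma1 rises in the same order at 1W, from 5.38 to 6.96, and lies between 5.84 and 6.19 at 5W.

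Counted over the members, 6 of the 7 could be tested. Against P0, 4 were called lower in EN at 1W (Cma1, Cpa3, Mcpt4 and Hdc) and 3 at 3W and at 5W (Cma1, Cpa3 and Mcpt4), where 5.67%, 14.4% and 14.5% of all tested features were called lower. In AN, 2 were called lower at 1W (Cma1 and Cpa3) and 3 at 3W and at 5W, against 3.62%, 12.8% and 12.7% of all tested features. Leaving aside Cpa3, which only its P0 groups brought into the test, EN had 3, 2 and 2 members called lower and AN had 1, 2 and 2. Mcpt4 entered the test through its P0 and 1W groups alone, so its 3W and 5W calls are not free of that choice either. With both genes set aside, Cma1 and Hdc were left in EN at 1W, and Cma1 alone in every other comparison with P0. No member was called higher than at P0, where 6.24%, 16.1% and 15.5% of all tested features were higher in EN and 4.96%, 15.0% and 15.2% in AN. The median log2 difference of the 6 members was -2.16, -1.94 and -1.63 in EN at 1W, 3W and 5W, and -1.34, -1.57 and -1.60 in AN. With Cpa3 at its bounds the 3W and 5W medians were -1.84 and -1.504 in EN, against -1.51 and -1.54 in AN. The median of all tested features lay between 0.01 and 0.06 in these comparisons. The medians of the members include Cpa3 and Mcpt4 and so carry the same choice, also with Cpa3 at its bounds. They are therefore a description and no test against all features. At 5W in EN the other members differed from P0 by -2.55 (Cma1), -0.72 (Tpsb2), -0.53 (Hdc) and -0.23 (Fcer1a). In AN these were -2.61, -0.55, -0.59 and -0.04.

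**Figure D3:**
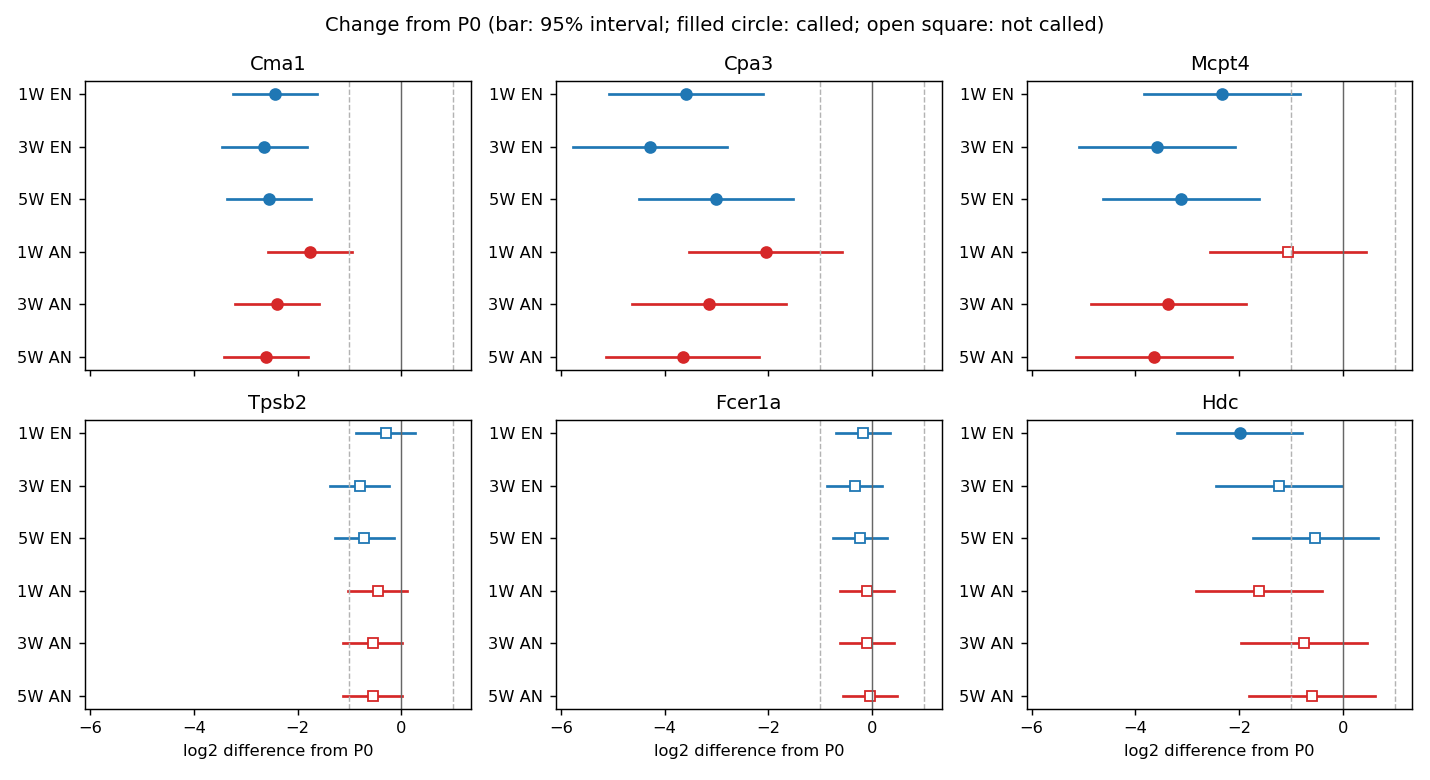
Log2 difference from P0 (horizontal axis) of the 6 tested mast cell genes at 1W, 3W and 5W in EN (blue) and AN (red), with 95% intervals from the limma fit; filled circles were called at an adjusted p below 0.05 and a fold change above 2 (dashed lines). Cma1 and Cpa3 are called in all 6 comparisons, Mcpt4 in 5, Hdc in 1, and Tpsb2 and Fcer1a in 0.

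For Cma1 the 1W difference from P0 was near that of 3W in EN (-2.44 and -2.64) and smaller in AN (-1.76 and -2.39), and the step from 1W to 3W was called in neither root. Cpa3 was dim at 3W and 5W, so its course after 1W was not measured. From 1W to 3W in AN, Mcpt4 was 2.30 lower on the log2 scale (difference -2.30, SE 0.72, adjusted p = 0.0212, and -1.92 with the 2 dim 3W arrays at their limits), the only member called of 6 tested, where 12.6% of all features were called in either direction. That call rested on single arrays: it was lost without 1W AN replicate 2 (-1.78, adjusted p = 0.103), without 3W AN replicate 2 (-1.70, adjusted p = 0.118) and with the slide as a block (-0.48, adjusted p = 0.738). In EN the same step gave no call among the members (11.7% of all features), with no member at an unadjusted p below 0.05. From 3W to 5W limma called no member in EN or AN, where 1.12% and 1.68% of all features were called, and again none had an unadjusted p below 0.05.

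The comparison of the dorsal with the ventral root asks whether afferent and efferent fibres carry different mast cell signal. In the limma fit without a block, no member was called at P0, 1W, 3W or 5W, where 0.327%, 2.79%, 3.12% and 3.32% of all tested features were called. In that fit 0 of the 6 had an unadjusted p below 0.05 at any age. It leaves out the pairing of same-numbered AN and EN arrays. With the replicate block within age, no member was called either. Mcpt4 at 1W, above background on all 6 arrays, was 0.97 higher in AN on the log2 scale (95% interval -0.54 to 2.47, adjusted p = 0.662). Cpa3 at 1W was 1.18 higher in AN in the fit (95% interval -0.30 to 2.66, adjusted p = 0.53) and 0.60 higher with its 3 dim arrays at their limits. At P0 Cpa3 differed by -0.35 (95% interval -1.84 to 1.13), and at 3W and 5W it was not above background in either root, so that no difference was measured. The fit without a block therefore bounds the root difference tightly for some members and loosely for others. Intervals that use the pairing are not given here. For Tpsb2 the intervals of the 4 ages lay within -0.92 and 0.62 and for Fcer1a within -0.93 and 0.35, which leaves out 2-fold differences. For Cma1 the intervals at P0 (-0.97 to 0.66) and 3W (-0.73 to 0.90) left out 2-fold differences as well. At 1W (-0.30 to 1.34) and 5W (-1.03 to 0.60) the Cma1 interval included over 2-fold in 1 direction. Over the 4 ages together the intervals reached from -1.59 to 1.38 for Hdc and from -2.31 to 2.47 for Mcpt4. These include differences of over 2-fold in either direction.

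**Figure D4:**
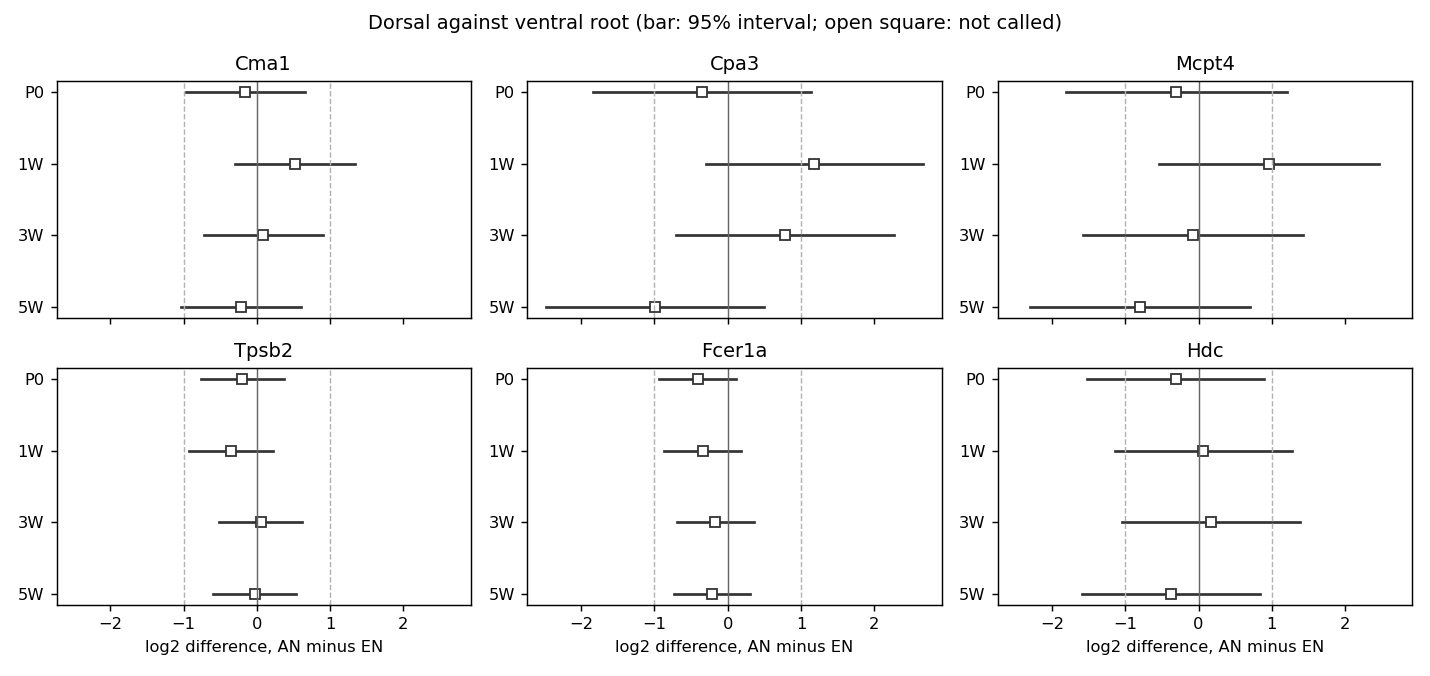
Log2 difference between AN and EN (horizontal axis) of the 6 tested mast cell genes at the 4 ages, with 95% intervals from the limma fit; open squares were not called, and dashed lines mark a 2-fold difference. Every interval includes 0, and those of Cpa3 and Mcpt4 are the widest; the 3W and 5W points of Cpa3 come from arrays on which it was not above background.

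Averaged over the 4 ages in the fit without a block, no member was called between the roots either, where 3.58% of all features were. Fcer1a was the only member with an unadjusted p below 0.05 there, at a log2 difference of -0.28 (SE 0.12, adjusted p = 0.124). In 9 other settings the Fcer1a difference ran from -0.32 to -0.10, with limma adjusted p values from 0.00908 to 0.249. None of them called Fcer1a, whose difference stayed under 2-fold. At each age its mean was lower in AN, by 0.41 at the most. The change of the root difference from P0 was called for no member at 1W, 3W or 5W, where 0.0632%, 0.525% and 0.931% of all features were called, and none had an unadjusted p below 0.05. Among the members above background on all arrays of P0 and 1W, the change of greatest size at 1W was that of Mcpt4 (1.27, adjusted p = 1).

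The genes whose pattern was most like the members were sought among 16900 genes by correlation with the mean of Cma1, Mcpt4, Tpsb2, Fcer1a and Hdc, each centred on its own mean. Cpa3 was not part of that mean, and its r of 0.95 over the 24 arrays rests on its high P0 values and on 15 arrays where it was not above background, so it is given as a description only. The arrays share their age groups, slides and pooled tissue, so these values describe likeness only. The 10 genes outside the members with the highest r over the 24 arrays were Myog (0.92), Tfap2b (0.91), Sfxn1 (0.90), Rps15a (0.89), Fndc3c1, Rps6, Col10a1, 4930596I21Rik, Lck and Igf2bp1 (0.89 each), genes with high signal at P0. With group means removed they were Clec10a (0.82), Cxadr (0.78), Gjb2 (0.75), Cldn1 (0.74), Echdc2 (0.73), Sidt1 (0.72), Pdpn (0.72), Ciita and Mknk2 (0.71 each) and Dcdc2a (0.70). Clec10a encodes a lectin of macrophages and dendritic cells, and Gjb2, Cldn1 and Pdpn encode junction and surface proteins that are found in the arachnoid and other barrier tissues. Their r over the 24 arrays without that step ran from -0.61 (Ciita) to 0.79 (Pdpn).

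Among the members above background on most arrays, Cma1 and Mcpt4 had r = 0.87 over the 24 arrays and 0.60 with group means removed. Tpsb2 and Cma1 had r = 0.67 and 0.35. Hdc had r = 0.51 and 0.36 with Cma1, 0.38 and 0.37 with Tpsb2, and 0.20 and -0.06 with Mcpt4.

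A further 39 genes of mast cells were read from the same arrays, of which 20 were above background on all 24 arrays, 6 on none and 27 were tested. Many of these genes are also used by macrophages, blood progenitors, melanocytes or nerve cells. The proteases of mucosal mast cells, Mcpt1 and Mcpt2, and the receptor Mrgprb2 of connective tissue mast cells were above background on 0 arrays, and the tryptase Tpsab1 on 6. Against P0, 8 of the 27 were called higher and 1 lower at 3W in EN, and 8 higher and 2 lower at 5W. In AN 6 were called higher and 1 lower at both ages. At 1W 2 were called higher in EN, and 3 higher and 1 lower in AN. The percentages of all features called in each direction are those given above for the members.

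Of the list genes that were called in 3 or more comparisons with P0, Siglecf, a lectin of eosinophils and some macrophages, was the one called lower. Its mean went from 7.67 at P0 to 5.27 at 3W and 4.43 at 5W in EN (log2 differences -2.40 and -3.24, adjusted p = 6.38e-07 and 1.05e-08, with 1 of 3 arrays above background at 5W), and from 7.64 at P0 to 5.90 at 5W in AN (-1.75, adjusted p = 2.26e-05). The mean of 3 eosinophil genes, Prg2, Epx and Ear6, went the other way. It was 4.97 at P0, 8.11 at 3W and 7.25 at 5W in EN, and 5.06 at P0 and 7.17 at 5W in AN. At P0 only 1 of the 3 was above background on all arrays of each root. Which cells gave the Siglecf signal was not tested. The other list genes called in 3 or more comparisons were called higher. Il1rl1, the receptor of an alarmin cytokine, went from a mean of 5.44 at P0 to 8.56 at 3W in EN (log2 difference 3.12, SE 0.23, adjusted p = 3.94e-09) and from 5.52 to 7.87 in AN. Srgn, the proteoglycan core on which granule proteases are stored, rose by 1.63 at 5W in EN and by 2.03 in AN (adjusted p = 1.19e-08 and 6.4e-10). Hpgds, the prostaglandin D synthase of blood cells, and the cytokine Il13 were called higher in 5 and 4 of the 6 comparisons, and the regulator Gata1 in 3. The Gata1 call at 1W in AN (adjusted p = 0.0495) was lost in 18 of 24 fits that left out 1 array and with the replicate block within age (adjusted p = 0.0612), and its 3W calls were lost with the slide as a block (adjusted p = 0.179 in EN and 0.319 in AN). The slide block likewise took the calls of Il13 at 3W (adjusted p = 0.081 in EN and 0.168 in AN), and normexp processing brought all Il13 and Hpgds calls under a 2-fold change. Mitf, a regulator of mast cells and melanocytes, was higher in AN at 1W, 3W and 5W by 1.74, 1.61 and 1.36. Over the same ages the mean of 8 macrophage genes went from between 9.92 and 10.36 at P0 to between 11.29 and 12.18 at 5W, and its part in the rise of Srgn, Fcer1g and Syk was not tested. Cd63, Ndst2 and Ltc4s, among the brightest of the list, were called in no comparison with P0.

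Kit, Siglecf and Gata2 were the list genes called between the roots. Kit, the receptor that mast cells, melanocytes and some sensory neurons carry, was higher in AN by 1.31 at 3W (SE 0.18, adjusted p = 0.00028) and by 1.41 at 5W (adjusted p = 0.000113). Its 3 arrays at 5W were 8.97, 8.66 and 9.35 in EN, against 10.44, 10.31 and 10.47 in AN, with no overlap. In EN the mean of Kit went from 10.29 at P0 to 9.58 at 3W and 9.00 at 5W, where it was called lower than at P0. In AN its mean was 10.87 at P0, 10.89 at 3W and 10.40 at 5W, and it was not called against P0. Siglecf was higher in AN by 1.67 at 3W and 1.46 at 5W (adjusted p = 0.000887 and 0.00214). Gata2 was higher in AN at P0 by 1.04 (adjusted p = 0.0227), a call lost without any 1 of 4 P0 arrays (AN replicate 3 and the 3 EN arrays, adjusted p between 0.0667 and 0.137) and, with a fold change just under 2, on scaling to the 75th percentile (1.00) and with normexp (0.97). Of 4 melanocyte genes at 5W, Tyrp1 had a mean of 8.77 in AN against 4.77 in EN and Dct 7.86 against 7.12, while Pmel (8.69 against 9.62) and Mlana (4.43 against 4.55) were not higher. The mean over the 4 was 7.31 to 7.66 in AN against 5.99 to 7.08 in EN, and their part in the Kit difference was not tested.

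The neighbours of Cma1 and Mcpt4 in the chymase cluster did not share their decrease as a block. Between Cma1 and Mcpt4 the gene table of GRCm38.p6 lists Cma2, Mcpt1, Mcpt2 and Mcpt9, and beyond Mcpt4 it lists Mcpt8 and Ctsg before the granzymes. The mean of Cma1 over the 6 arrays was 8.46 at P0 and 5.88 at 5W, and that of Mcpt4 was 8.10 and 4.72. Cma2, above background on all 24 arrays, was at 7.94 and 7.64. Ctsg went from 6.61 to 8.52. It was called higher in AN at 3W and 5W (adjusted p = 0.0306 and 0.034), but both calls were lost with the slide as a block (adjusted p = 0.782 and 0.146), with the replicate block within age (0.0513 and 0.0564) and in 5 of the 24 fits that left out 1 array. In EN the differences were 1.85 and 1.56 (adjusted p = 0.0762 and 0.135). The basophil protease Mcpt8 was at 4.38 and 5.59, and Mcpt1, Mcpt2 and Mcpt9 were above background on 0 arrays.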

How the data were processed

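RNA of the 24 nerve root samples was hybridised to 1-colour Agilent mouse arrays. The authors deposited the spot intensity of each array as written by Feature Extraction 10.7.1.1, with marks for spots well above background, and a table in log2 units that they quantile normalised in GeneSpring. The deposited log2 values were used here, and each column correlated best with the intensity of its own array (r = 0.992 or more, and at most 0.99 with any other). Each member was read from its feature of highest mean, and of the further mast cell list those called in 3 or more comparisons with P0 or between roots, or brightest in their sub-list, were named. A feature was tested (36398 of 56605) where some group had it well above background on each of its 3 arrays. The 8 group means were fitted with limma 3.58.1 in R 4.3.3, with 16 residual degrees of freedom and without a block. A feature was called at a Benjamini-Hochberg adjusted p below 0.05 over all tested features and a fold change above 2, the thresholds of the study's methods, which name no adjustment. The fit was tested on simulated data. The study's methods describe a tube of collected fibres for each group and 3 independent experiments. Neither they nor the labels say whether the 3 arrays of a group are separate pools. The p values measure the spread between the arrays of a group, and what that spread stands for is not known. Same-numbered AN and EN arrays of an age deviated together from their group means (r = 0.107 to 0.647 over 12 pairs, against -0.468 to 0.116 for other pairs), so that the pairing comes from the data, and a fit with that replicate block within age was added. The alternatives were the scanner intensity with quantile, 75th percentile or normexp processing (offset 50), no filter or a filter on all 24 arrays, blocks for replicate number and slide, array weights, unadjusted p values and leaving out each array. The precision of an array value is limited by its signal over background, which ranged from a median of 45.4 to 191 over a background of 23 to 46. The members, the gene lists and the tests were chosen with earlier results of these data known. Sequences and gene order came from RefSeq tables of GRCm38.p6, which held no promoter for Tpsb2.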

Additional observations from a re-analysis of the deposited data

Results flagged for a closer look

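The difference between the roots changed with age for 1 named gene. Siglecf was 1.70 higher in AN relative to EN at 3W than at P0 (interaction contrast, limma, SE 0.38, adjusted p = 0.0465). Its log2 signal at 3W was 5.54, 5.07 and 5.19 in EN and 7.15, 7.19 and 6.47 in AN, while at P0 the means were 7.67 and 7.64. The call was lost with scaling to the 75th percentile (adjusted p = 0.0635), with normexp (0.90, adjusted p = 0.0629), without a filter on dim features (adjusted p = 0.0748), and in 17 of the 24 fits that left out 1 array (adjusted p up to 0.137). With the replicate block within age, where the value was also 1.70, it was kept (adjusted p = 0.000288).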

How the results depend on the processing

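No call reversed its direction under the alternatives that were run, and the 0 members called between the roots and in the interaction comparisons stayed 0 in all 35 settings. Leaving out 1 array gave 2 to 4 members called in EN at 1W against P0, 3 to 4 at 3W and 3 to 3 at 5W. In AN it gave 1 to 3 at 1W, 3 to 3 at 3W and 5W, and 0 to 2 from 1W to 3W. With only features above background on all 24 arrays, which leaves Cma1, Tpsb2 and Hdc, 2 were called in EN at 1W, 1 in each root at 3W and at 5W, and 0 in AN from 1W to 3W. At 1W against P0 in AN, 1 member was called without the filter and 1 with the replicate block within age, in place of 2, and 3 were called with replicate number as a block. From 1W to 3W in AN, 0 were called with the slide block, 2 with array weights and 0 without 1W AN replicate 2 and 1W EN replicate 3 together, and in EN 1 was called with array weights. The replicate block within age changed no other count of members. With normexp the offset shrank the differences, as for Cpa3 at 3W in EN (-1.59 in place of -4.27), and Cma1, Mcpt4 and Cpa3 kept their calls at 3W and 5W. The fits with a second feature per gene were not run, because no second feature passed the filter. The cause of the lost calls was not tested. Signal over background limits Cpa3, Mcpt4 and Ms4a2, whose later values are bounds or near them.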
